A study of Mus musculus with 8 samples.

Results

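The wild-type CD4 T cells of this study, activated in culture for 24 hours, are described here gene by gene from 4 of the 8 arrays of the series. The 4 arrays were those titled WT1 to WT4, and they are called replicates 1 to 4 after the titles. The study measured RNA on Affymetrix whole-transcript arrays to ask which genes the transcriptional repressor Bcl6 controls in naive CD4 T cells. Sorting gave naive CD4 T cells of the genotype Wild type (4 arrays) and of T cell-specific conditional Bcl6-/- mice (4 arrays). Cells of both genotypes were treated with antibodies against CD3 and CD28 before RNA was taken, and 100 ng of total RNA per sample was labelled with biotin. No difference between the genotypes was computed. The 4 knockout arrays serve in a few places as further arrays carrying the same replicate numbers. Age, sex, strain, the number of mice per sample and the meaning of the tag Tf0 are not given in the labels, which also do not say whether replicates came from separate mice. The spread between arrays may therefore be partly technical. Every array holds stimulated cells, so a high signal here shows that a gene was measured as expressed after activation and not that activation induced it.

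A naive CD4 T cell is a resting lymphocyte that has not yet met its antigen. Antibodies to CD3 act on the T cell receptor complex and antibodies to CD28 on its main costimulatory receptor, and together they make the cell leave quiescence, grow in size, take up nutrients, make ribosomes and enter the cell cycle before its first division. Early transcription factors such as the Egr, Nr4a, Fos and Jun families, the cytokine Il2 and the surface proteins CD69, CD25 (gene Il2ra) and the transferrin receptor (gene Tfrc) are widely used signs of this state.

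A gene was called above background when its log2 signal lay above that of 95% of the 1225 odorant, vomeronasal, trace-amine and bitter taste receptor genes on the same array, on all 4 arrays. This ceiling lay between 6.82 and 6.94. Of 19938 genes, 12314 (61.8%) were above background, and 44 of the 1225 receptor genes (3.59%) were. Mean signals of 12 or more were found for 580 of the 12314 genes (4.71%), 10 to 12 for 3703 (30.1%), 8 to 10 for 4646 (37.7%) and under 8 for 3385 (27.5%). Signals of different genes also depend on how well their probes bind, so an order of signals is not an order of RNA amounts, and the order given below is that of signal only. In bulk RNA, fewer cells of a type and less RNA per cell cannot be told apart. Any pair of the 4 arrays correlated at 0.991 to 0.998 across the genes above background, which are not independent replicates, and no pair shared more than 3.94% of identical values.

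**Figure D1:**
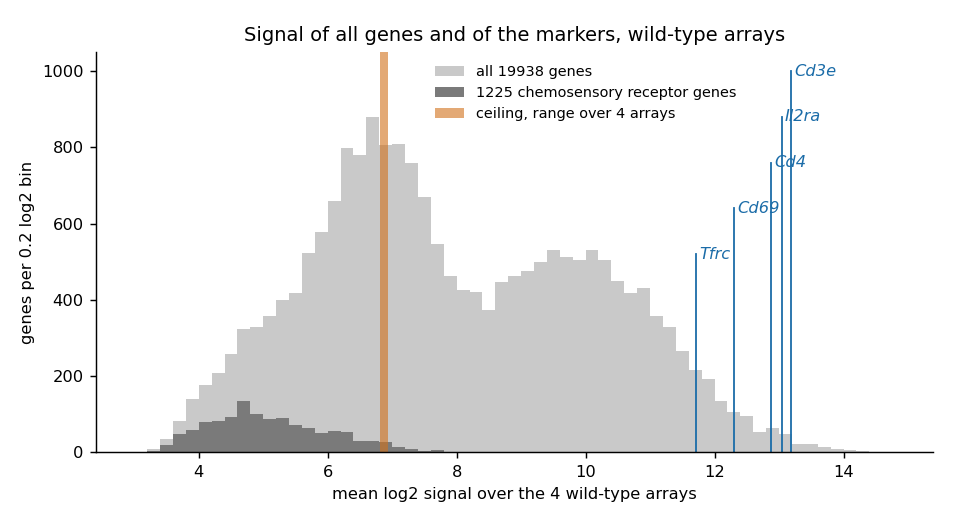
Histogram of the mean log2 signal over the 4 wild-type arrays (horizontal axis) against the number of genes per bin (vertical axis), for all 19938 genes in light grey and the 1225 chemosensory receptor genes in dark grey. The orange band spans the ceilings of the 4 arrays, and the blue lines, whose heights have no meaning, place the 5 markers at 11.71 to 13.19, to the right of most genes.

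All 5 markers of an activated CD4 T cell lay in the top 859 genes by mean signal. Cd3e, a signalling chain of the T cell receptor complex, read 13.17, 13.20, 13.20 and 13.17 on replicates 1 to 4 (13.19 ± 0.017, mean ± SD of log2 signals, n = 4 here and below) and ranked 82 of 19938. Cd4 read 12.81, 12.89, 12.89 and 12.93 (12.88 ± 0.050) and ranked 163. The lineage markers thus differed by at most 0.12 between arrays. Il2ra, the alpha chain of the interleukin-2 receptor, read 13.08, 13.02, 13.05 and 13.01 (13.04 ± 0.032) and ranked 119. Cd69, a membrane protein that retains activated lymphocytes in tissue, read 12.38, 12.20, 12.39 and 12.22 (12.30 ± 0.10), rank 385. Tfrc, which imports iron, read 11.72, 11.72, 11.80 and 11.59 (11.71 ± 0.087), rank 859. Cd69 was higher on replicates 1 and 3 than on replicates 2 and 4, a split that returned in many genes below, whereas Il2ra showed almost the same signal on all arrays.

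The genes with the highest signals were largely those of translation. Among the 20 highest genes that could be named, 9 encode cytosolic ribosomal proteins, led by Rplp0 (14.09 ± 0.013), Rpl10 (14.07 ± 0.021) and Rpl28 (14.06 ± 0.021). The others included the elongation factor Eef1a1 (14.38 ± 0.017), cytoplasmic actin Actb (14.32 ± 0.024), the RNA of ribonuclease P, Rpph1 (14.12 ± 0.042), the thiol reductant Txn1 (13.96 ± 0.024) and the translation-associated Tpt1 (13.89 ± 0.017). Serglycin (Srgn, 13.86 ± 0.059), a granule proteoglycan of blood cells, the membrane protein Fxyd5 (13.84 ± 0.017), the chaperone Hspa8 (13.83 ± 0.024), profilin (Pfn1, 13.82 ± 0.056) and the poly(A)-binding protein Pabpc1 (13.80 ± 0.036) completed the group with Baiap2l1. Baiap2l1 ranked highest at 14.39 ± 0.032, but the array has 3 probe sets with that symbol, and the other two read 12.49 and 6.09, so the symbol's rank rests on 1 probe set. Many ribosomal protein symbols also have several probe sets, since processed copies of these genes are spread over the genome, and such signals cannot be assigned to 1 locus. In all, 60 of 62 cytosolic ribosomal protein genes were above background, against 61.8% of all genes. Their median signal was 13.07, and the 12 measured reference genes had a median of 13.59 and a median SD of 0.030.

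The T cell identity list had 16 measured genes among its 18 entries, and all 16 were above background, against 61.8% of all genes. Its median signal was 12.37, above that of 98.3% of genes. Ptprc, the CD45 phosphatase of all leukocytes (13.07 ± 0.033), and Cd5, a negative regulator of receptor signalling (12.96 ± 0.068), followed Cd3e, and the lowest was Cd247, the zeta chain (10.96 ± 0.18). None of the 16 differed by 0.5 or more between arrays. Among surface proteins linked to activation, 18 of 18 were above background, with a median of 11.79. After Il2ra came Slc3a2, the heavy chain of amino acid transporters (12.90 ± 0.053), and the costimulatory receptor Tnfrsf4, also called OX40 (12.65 ± 0.11). Cd44, an adhesion receptor used to tell memory from naive cells, was the lowest of them, at 8.42, 7.72, 8.02 and 7.61 (7.94 ± 0.36). Cd44 differed more between arrays than the markers did, with its highest values on replicates 1 and 3. The inhibitory receptor Pdcd1 (PD-1), chosen after its values were seen, did the same at 10.94, 10.15, 10.80 and 10.06.

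All 25 measured activation transcription factors were above background, against 61.8% of all genes, with a median of 10.33. The 3 highest were Irf4 (12.97 ± 0.17), which sustains the response to receptor signalling, Myc (12.80 ± 0.084), which drives growth, and the orphan nuclear receptor Nr4a1 (12.73 ± 0.45), which reports receptor signal strength. The lowest was the AP-1 partner Batf3 (7.54 ± 0.030). Within this list the arrays separated. Nr4a1 read 13.11 on replicates 1 and 3 but 12.37 and 12.31 on replicates 2 and 4. Its relative Nr4a2 read 11.00 and 10.68 on replicates 1 and 3 but 8.66 and 8.22 on replicates 2 and 4 (9.64 ± 1.40). The lower of the first pair was therefore about 2 log2 units above the higher of the second pair. The following genes were chosen after their values were seen. Nr4a3 read 12.08 and 12.04 against 11.39 and 11.36, again in the order replicates 1, 3, 2 and 4. Egr1, a zinc finger factor induced by receptor signalling, read 11.27 and 11.24 against 10.71 and 10.68. Egr2 and Egr3, which limit T cell responses, showed the same separation. Egr2 read 11.35 and 11.40 against 10.78 and 10.53, and Egr3 read 11.24 on both arrays against 10.56 and 10.51. The split was not shared by all factors. Irf4 was highest on replicates 2 and 4 (13.05 and 13.14), and the NF-kappaB subunit Relb, chosen in the same way, lay between 9.56 and 9.58 on all 4 arrays. Of the 25 factors, 16 had both replicates 1 and 3 above both replicates 2 and 4, and 2 had the opposite order; among all 12314 genes above background these orders held for 26.8% and 15.7%. With the arrays brought to 1 distribution by quantile normalization the counts were 14 and 4, and the shares of all genes 23.2% and 20.6%.

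**Figure D2:**
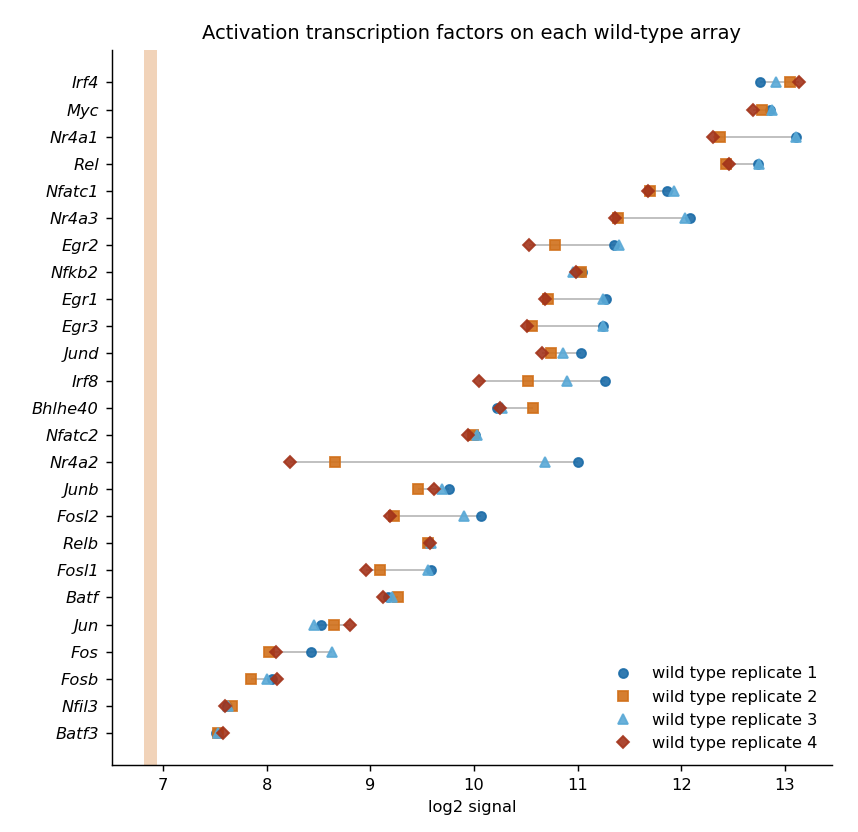
Log2 signal (horizontal axis) of the 25 activation transcription factors (rows) on each of the 4 wild-type arrays, with a symbol per array and a grey line over the range. The pale band is the range of the background ceilings; the 2 blue symbols (replicates 1 and 3) lie to the right of the others for Nr4a1, Nr4a2, Nr4a3 and the Egr genes, while Relb and Nfatc2 lie within 0.1.

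Of 21 cytokine genes measured, 12 were above background (57.1%), a share near the 61.8% of all genes. The highest were Tnf, a pro-inflammatory cytokine (12.22, 11.92, 12.19 and 11.92, 12.06 ± 0.17), the regulatory cytokine Tgfb1 (11.73 ± 0.10) and lymphotoxin beta (Ltb, 11.19 ± 0.077). Il2, the growth factor of activated T cells, was the next in order at 10.88, 11.23, 11.03 and 11.29 (11.11 ± 0.19) and was singled out after its value was seen. Tnf was higher on replicates 1 and 3 and Il2 on replicates 2 and 4. The cytokines that define helper lineages were near or under the ceiling. Ifng, the Th1 cytokine, read 7.07, 7.75, 7.17 and 7.36, and Il13 and Il17f averaged 7.29 and 7.14. Il4, Il5, Il9, Il10, Il21, Il17a, Il3, Il6 and Csf2 were not above background, the lowest being Il6 at 3.85 ± 0.18. Of 11 chemokine genes 6 were above background (54.5%), also near that share, with Ccl3 the highest (10.22, 10.71, 9.71 and 10.08, 10.18 ± 0.41), then Xcl1 (8.05 ± 0.56) and Ccl5 (7.78 ± 0.16), and Cxcl16 the lowest (5.93 to 6.05). With the ceiling at the 99th percentile of the receptor genes only 1 of the 11 chemokines remained above it. Of 18 cytokine receptor genes 17 were above background, led by the interleukin-2 receptor beta chain Il2rb (12.22 ± 0.13), the shared signalling chain Il6st (12.17 ± 0.057) and Il4ra (11.70 ± 0.079); Il18r1 (6.98 ± 0.33) was not.

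Genes of naive and quiescent T cells were still measured at high signal. All 17 were above background, against 61.8% of all genes, with a median of 11.16. Ccr7, the receptor that guides T cells into lymph nodes, read 13.49, 13.50, 13.50 and 13.57 (13.52 ± 0.037), rank 45, and the anti-proliferative Btg1 (12.78 ± 0.053) and the chromatin organiser Satb1 (12.56 ± 0.033) followed. The lowest was Tsc22d3, a glucocorticoid-induced gene (8.40 ± 0.21). In this list the arrays were ordered the other way round from the activation factors: 12 of 17 genes had both replicates 2 and 4 above both replicates 1 and 3, and 1 had the opposite order. Among all genes above background these orders held for 15.7% and 26.8%. The counts were the same after quantile normalization, beside 20.6% and 23.2% of all genes. With the arrays shifted to a common median the counts were 7 and 4, beside 11.0% and 29.0% of all genes. Il7r, the receptor of a survival cytokine of resting T cells, had the widest range, at 10.99, 11.70, 10.30 and 11.65 (11.16 ± 0.66). Its SD was 0.396 without replicate 3. Klf2 and S1pr1, which guide exit from lymphoid tissue and were chosen after their values were seen, read 9.91, 10.46, 9.88 and 10.53 and 10.58, 11.18, 10.46 and 11.38. Both were higher on replicates 2 and 4, without overlap between the pairs.

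The shares of helper lineage genes above background ran from 57.1% (Th17) to 90% (regulatory T cells), beside 61.8% of all genes. For Th1 the count was 7 of 8 genes, among them Stat4 (11.42 ± 0.11), Runx3 (10.24 ± 0.15), the lineage factor Tbx21 (8.22, 9.13, 7.73 and 8.51, 8.40 ± 0.58) and Eomes (8.90, 8.17, 8.66 and 7.55, 8.32 ± 0.60). Tbx21 was highest on replicate 2 and Eomes on replicate 1, so these relatives did not follow the same order. With the ceiling at the 99th percentile 3 of the 8 remained. For Th2, 7 of 9 were above background, with Il4ra, Stat6 (11.37 ± 0.039) and Ccr4 (11.04 ± 0.28) the highest. For Th17 the count was 4 of 7: Stat3 (11.26 ± 0.017), Ahr (8.20 ± 0.14), Rora (7.36 ± 0.16) and Il17f. For follicular helper cells it was 10 of 13, with Icos (12.25 ± 0.057), Cd200 (11.87 ± 0.16) and Il6ra (11.70 ± 0.18) highest, while Cxcr5, Ascl2 and Il21 were not above background. Several of these genes are general activation genes and stand in 2 lists. Bcl6 itself, singled out because the study is about it, read 8.47, 8.33, 8.56 and 8.10 (8.37 ± 0.20), in the lower part of the genes above background. For regulatory T cells 9 of 10 were above background, with Gpr83 (10.97, 10.32, 10.77 and 10.08, 10.54 ± 0.41), Capg (10.29 ± 0.15) and the lineage factor Foxp3 (9.86, 9.82, 9.61 and 9.61, 9.73 ± 0.13). The share of cells behind the Foxp3 signal was not tested.

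Cell cycle genes were present up to DNA replication at high signal and through mitosis at lower signal. The share of all genes above background, beside the counts that follow, was 61.8%. D cyclins, their kinases and inhibitors were above background in 11 of 11 cases, with Ccnd2 (13.57 ± 0.064), Cdk4 (13.14 ± 0.087) and Cdk6 (11.28 ± 0.059) highest and Ccnd1 (7.49 ± 0.093) lowest. All 23 S phase genes were above background, with a median of 10.10: the replication clamp Pcna read 13.24 ± 0.056 and the helicase subunits Mcm2 and Mcm7 read 12.06 ± 0.13 and 12.04 ± 0.14. Pcna has another probe set with the same mean and SD. Of the mitosis genes 16 of 19 were above background, with a median of 8.37 over all 19. Top2a read 9.70, 10.15, 9.75 and 9.58 (9.80 ± 0.25), Aurkb read 9.69, 10.16, 9.55 and 9.61 (9.75 ± 0.28) and Ccna2 read 9.17, 9.99, 9.08 and 9.10 (9.34 ± 0.44). For these 3 genes replicate 2 was the highest, and it was so for 14 of the 16, against 20.6% of all genes above background; after quantile normalization the count was again 14, against 18.4%. For all 23 S phase genes the lowest array was replicate 4, against 46.2% of all genes above background; after quantile normalization this count was 20 of 23, against 32.1%. A second probe set of Top2a had a mean of 5.95, under the ceiling.

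Genes of growth and metabolism were above background in nearly every case, against 61.8% of all genes. All 15 glycolysis genes were, with Ldha (13.50 ± 0.036), which makes lactate, and Aldoa (13.14 ± 0.068) near the top; Hk1 read 13.53 ± 0.038, but its other probe set read 10.36. Hk2 was the lowest at 8.81 ± 0.13. For amino acid supply the count was 14 of 15, with the glutamine carrier Slc1a5 (12.47 ± 0.13) and the serine and one-carbon enzymes Shmt2 (12.44 ± 0.064) and Psat1 (12.27 ± 0.088); Slc7a11 (6.17 ± 0.088), the cystine carrier, was not above background. Ribosome biogenesis genes were all above it (18 of 18, median 11.76), among them nucleolin (Ncl, 13.10 ± 0.022), Nop56 (12.82 ± 0.076) and Npm1 (12.77 ± 0.078). Chaperones followed at 17 of 17 with a median of 12.54, including the chaperonin subunit Cct2 (13.13 ± 0.015) and Hsp90aa1 (12.97 ± 0.054), whereas heat-inducible Hspa1a read 7.80 ± 0.13. Sterol and fatty acid synthesis genes numbered 14 of 15, with Fasn (11.79 ± 0.13), Srebf2 (11.69 ± 0.11) and Fdft1 (11.52 ± 0.12); the exception was Scd1 (5.67 ± 0.30). The respiratory chain (79 of 81, median 11.28), mitochondrial ribosomal proteins (77 of 77, median 10.30), the proteasome (37 of 39, median 11.20) and cytosolic tRNA synthetases (15 of 15, median 11.60) completed this group. Members of these families that were not above background included the tissue-restricted forms Cox7b2 (5.21 ± 0.11) and Psma8 (6.02 ± 0.13). Survival and death genes were above background in 14 of 14 cases, from the kinase Pim2 (12.82 ± 0.076) and Casp8 (12.76 ± 0.083) down to Bbc3 (7.47 ± 0.062).

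Markers of other cell types were mostly at or under the ceiling. Of 82 such genes, 28 (34.1%) were above background, beside 61.8% of all genes, and 2 had a mean of 9 or more. Those 2 were Cd8b1, at 10.90, 11.12, 11.02 and 11.12 (11.04 ± 0.10), and Pecam1 (CD31), at 9.75, 10.25, 9.72 and 10.22 (9.99 ± 0.29). Cd8b1 encodes the beta chain of CD8, whereas Cd8a, without which CD8 does not reach the surface, read 6.93, 6.93, 6.96 and 7.14, just past the ceiling. Pecam1 is an endothelial and leukocyte adhesion protein, and another endothelial marker of the list, Cdh5, was not above background. Cytotoxic genes above it were Nkg7 (9.13, 8.60, 9.04 and 7.98, 8.69 ± 0.53), Eomes and the pore-forming Prf1 (7.71 ± 0.14), while Gzma (5.69 ± 0.036) was not. The B cell genes above background were 2 of 9, Cd79b (7.41 ± 0.093) and Pax5 (6.90 ± 0.066), and Cd79a and Ms4a1 were not. Natural killer and innate T cell genes were 3 of 10, Sox13, Zbtb16 and Tyrobp (7.08 to 7.96), and Ncr1, Klrb1c and Klre1 were not among them. Myeloid genes were 2 of 11, Cd68 (8.24 ± 0.11) and Fcgr3 (7.17 ± 0.13), and Csf1r, Lyz2, Itgam, Cd14 and Adgre1 were under the ceiling. Dendritic cell genes were 5 of 12, Cd74 (8.29 ± 0.19), Zbtb46, Batf3, Ciita and Siglech, with Flt3, Itgax, Xcr1, H2-Aa and H2-Ab1 not above background. Granulocyte genes were 2 of 11 (Elane and Mpo, 7.11 and 7.03), erythroid and platelet genes 3 of 7 (Itga2b, Epor and Gp9, 7.28 to 7.58), and stromal genes 6 of 12, which were Pecam1, Col1a1 (8.12 ± 0.069), Col3a1 (7.98 ± 0.12), Col1a2 (7.83 ± 0.11), Krt8 (7.64 ± 0.21) and Krt18 (7.20 ± 0.034). The remaining markers of these lists were not above background. With the 99th percentile as ceiling the count was 9 of the 82.

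**Figure D3:**
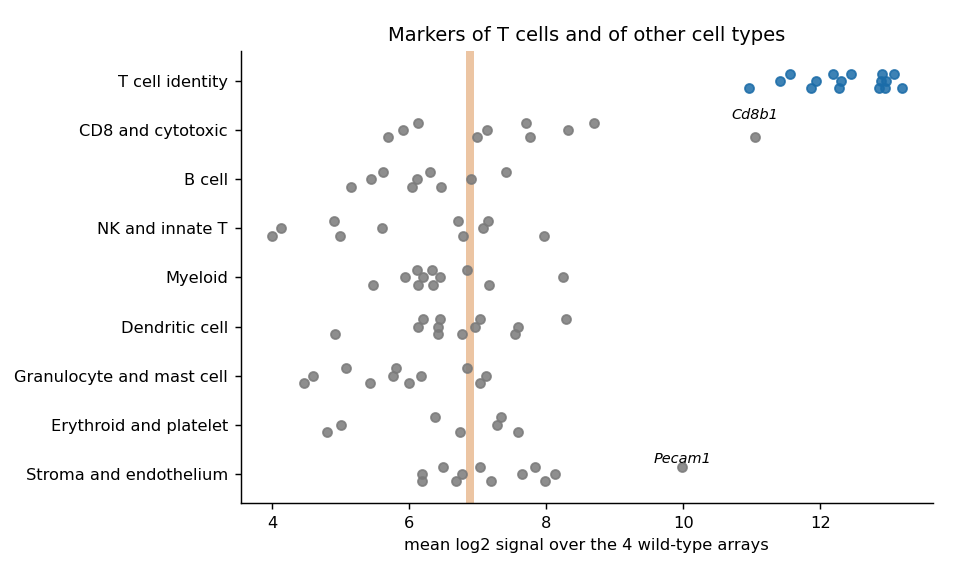
Mean log2 signal over the 4 wild-type arrays (horizontal axis) of each measured gene of the T cell identity list (blue) and of 8 lists of other cell types (grey), 1 point per gene, offset vertically for legibility. The orange band spans the background ceilings; all T cell genes lie at 10.96 or more, and only Cd8b1 and Pecam1 of the other lists exceed 9.

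The median SD of a gene above background was 0.091, 90% of genes had an SD of at most 0.177 and 99% of at most 0.353. Without replicate 4 the median SD was 0.060. The spread was smaller at high signals, with a median SD of 0.106 in the fifth of 10 equal groups of genes ordered by signal and 0.062 in the brightest group. Replicate 4 stood apart: the middle 50% of genes spanned 0.18 in their deviation from the 4-array median there, against 0.075 to 0.08 on the other arrays. After quantile normalization this width was 0.134 on replicate 4, against 0.0706 to 0.0775 on the others, and the median SD was 0.077. A total of 578 genes (4.69% of those above background) had a range of at least 0.5 between the 4 arrays, a factor of 1.41, and 272 did so without replicate 4. A range of at least 1, a factor of 2, was found for 56 genes (0.455%). The pairs of arrays differed in the number of such genes: 3 genes differed by at least 1 between replicates 1 and 3 and 6 between replicates 2 and 4, whereas each of the other pairs differed in 26 to 31.

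Most of the 56 genes followed the split into replicates 1 and 3 on one side and 2 and 4 on the other. Their members beyond those named by rule were chosen after their values were seen. For 24 the 2 highest signals were those of replicates 1 and 3, beside 26.8% of all genes above background. Besides Nr4a2 the 24 included regulators of signalling. Dusp6, a phosphatase that switches off ERK, read 11.17, 10.18, 11.19 and 9.95 (10.62 ± 0.65). Ubash3b, a phosphatase acting near the T cell receptor, read 10.93, 9.75, 10.81 and 9.63 (10.28 ± 0.68). The neuronal activity factor Npas4 read 8.99, 7.92, 9.01 and 7.59 (8.38 ± 0.73). In all of these the pairs do not overlap, which follows from grouping the genes by their 2 highest signals. The chemokine receptor Ccr8 read 10.13, 9.02, 10.01 and 8.43 (9.40 ± 0.81), and the transcription factor Irf8 read 11.26, 10.52, 10.90 and 10.05. The steroid-metabolising Akr1c18 read 10.51, 8.26, 8.84 and 7.35 (8.74 ± 1.33), with replicate 1 far above the rest, and its SD was 0.751 without it. Dusp4, Nkg7, Eomes, Xcl1, Alcam, Sema7a and Ifit1 were also among the 24. Of these, Xcl1 read 8.86, 7.85, 7.89 and 7.60, and its SD was 0.157 without replicate 1.

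For 23 of the 56 genes the 2 highest signals were those of replicates 2 and 4, beside 15.7% of all genes above background. These 23 included several interferon-inducible defence genes. Among them were 7 guanylate-binding protein genes, which encode large GTPases acting on intracellular pathogens. They were listed after their values were seen, so their common order, highest on replicate 2 and lowest on replicate 3, is a description of the genes so chosen. Gbp7 read 9.17, 10.72, 8.72 and 10.16 (9.69 ± 0.91), Gbp3 read 8.01, 9.58, 7.69 and 8.95 (8.56 ± 0.87), and Gbp4 read 10.54, 11.78, 10.38 and 11.50 (11.05 ± 0.69). Gbp4, Gbp8, Gbp9 and Gbp11 are close relatives whose probes may be shared, so they are not separate observations. The immunity-related GTPases showed the same order. Iigp1 read 7.88, 10.32, 7.74 and 9.72 (8.92 ± 1.30), and Irgm1 read 9.90, 10.72, 9.59 and 10.51 (10.18 ± 0.53). Oasl2 read 7.52, 8.83, 7.20 and 8.13 (7.92 ± 0.72), with an SD of 0.473 without replicate 2. In each of these genes replicates 2 and 4 lay above replicates 1 and 3, which was fixed by the way the 23 genes were grouped. Zbp1, Cxcl10, Rtp4 and Ifi213, all interferon-inducible, were in this group too, as were Tbx21, Il7r, the matrix protein Ecm1 (10.72, 11.84, 10.62 and 11.90, 11.27 ± 0.69), Anxa2 and the proliferation marker Mki67 (8.16, 9.17, 8.31 and 8.51). Irf1, the interferon-regulated transcription factor, had a range under 1 but the same order, at 10.53, 11.27, 10.44 and 11.07 (10.83 ± 0.41). A second probe set of Irf1 had a mean of 7.62 and an SD of 0.17. Interferon-stimulated genes did not move as a block. Of the 13 measured, 11 were above background, beside 61.8% of all genes. Of these 11, 8 were highest on replicate 2, against 20.6% of all genes above background. With the arrays at a common median or after quantile normalization the count was 9, against 23.5% and 18.4%. Replicate 4 was the highest array for 1 of the 11 and the lowest for 4, beside 25.3% and 46.2% of all genes above background. Both replicates 2 and 4 lay above both replicates 1 and 3 for 5 of the 11, beside 15.7%. The opposite order held for 1 of the 11, beside 26.8%. Ifit1 read 8.46, 7.89, 8.31 and 7.46, with replicates 1 and 3 above replicates 2 and 4. Ifng, the cytokine, was also highest on replicates 2 and 4, at the low signals given above.

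**Figure D4:**
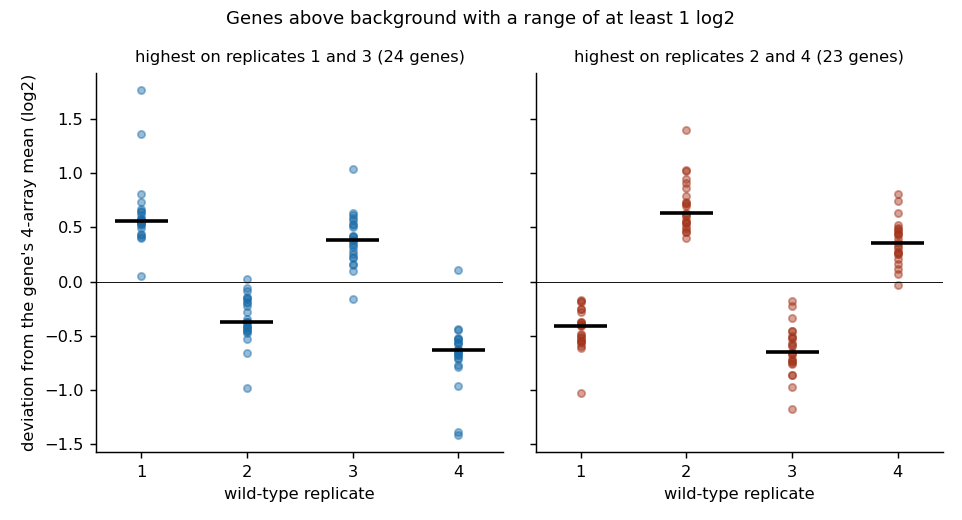
Deviation of each gene from its own 4-array mean in log2 units (vertical axis) on wild-type replicates 1 to 4 (horizontal axis), for the 24 genes with a range of at least 1 that were highest on replicates 1 and 3 (left) and the 23 highest on replicates 2 and 4 (right). Points are genes and black bars are medians over genes; the selection on range and order fixes the up and down pattern, and the plot shows its size.

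The knockout arrays, whose values did not enter these ranges or orders, carry the same replicate numbers. Of the 24 genes highest on wild-type replicates 1 and 3, 12 also had a higher mean on knockout replicates 1 and 3 than on 2 and 4, an order held by 52.2% of all genes above background. Of the 23 genes of the other order, 21 had the higher mean on knockout replicates 2 and 4, against 45.5% of all genes. For the larger set with a range of at least 0.5 these counts were 171 of 225 and 127 of 163. Nr4a2 read 10.55, 9.30, 10.60 and 8.89 on knockout replicates 1 to 4, and Gbp3 read 8.33, 9.89, 8.17 and 8.85. Gbp3 keeps the order of the wild-type arrays, and Nr4a2 keeps only the pairs, with replicate 3 above replicate 1. Gbp7 was highest on knockout replicate 2 alone, at 9.52, 10.66, 9.54 and 9.54. Il7r did not keep the wild-type pairs, at 11.37, 10.59, 10.58 and 10.01. The labels say nothing of what a replicate number stands for, and whether the numbers mark a day, a litter or a batch of stimulation was not tested.

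Sequence just before the transcription start is shown for 5 genes of both sides of this split and for Il2, to place the letters beside the signals. The sequences are the 150 bases before the start that RefSeq lists first for the gene on GRCm38.p6, 5′ to 3′ on the gene's strand, and capitals mark every match to a motif searched on either strand. Il2 lies on the minus strand at chr3:37125955-37126104, Nr4a2 on the minus strand at chr2:57124004-57124153, Dusp6 on the plus strand at chr10:99263081-99263230, Gbp3 on the plus strand at chr3:142559894-142560043, Gbp7 on the plus strand at chr3:142530186-142530335 and Irf1 on the plus strand at chr11:53769864-53770013.
Il2: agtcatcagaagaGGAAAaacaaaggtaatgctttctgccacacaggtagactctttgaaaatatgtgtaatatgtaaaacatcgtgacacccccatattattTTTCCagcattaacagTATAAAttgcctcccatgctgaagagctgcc
Nr4a2: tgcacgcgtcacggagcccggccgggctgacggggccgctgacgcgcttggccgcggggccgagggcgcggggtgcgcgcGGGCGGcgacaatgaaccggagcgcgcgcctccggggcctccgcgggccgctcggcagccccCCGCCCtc
Dusp6: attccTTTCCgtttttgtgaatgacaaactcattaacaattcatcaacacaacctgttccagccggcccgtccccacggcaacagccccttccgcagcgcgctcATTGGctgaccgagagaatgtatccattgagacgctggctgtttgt
Gbp3: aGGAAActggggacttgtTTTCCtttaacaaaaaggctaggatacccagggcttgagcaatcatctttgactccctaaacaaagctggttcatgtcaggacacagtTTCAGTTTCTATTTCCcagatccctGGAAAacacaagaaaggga
Gbp7: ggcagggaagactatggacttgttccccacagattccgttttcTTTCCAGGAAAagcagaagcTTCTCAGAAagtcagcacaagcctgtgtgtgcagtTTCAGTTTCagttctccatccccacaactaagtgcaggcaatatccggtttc
Irf1: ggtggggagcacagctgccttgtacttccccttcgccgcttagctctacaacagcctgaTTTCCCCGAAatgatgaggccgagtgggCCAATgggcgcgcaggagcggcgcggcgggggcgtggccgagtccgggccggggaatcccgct
The capitals in Il2 include a TATAAA whose first base is at -31 from the start, and those in Irf1 a TTCNNNGAA at -90, the letters bound by STAT proteins. Gbp3 holds the overlapping matches at -44 and -38 to GAAANNGAA, read on the other strand, and Gbp7 holds 1 at -52 beside TTCNNNGAA at -106 and -87. The GAAANNGAA letters are those of the interferon-stimulated response element. Nr4a2 and Dusp6 have no such match in the 250 bases searched.

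The 7 motifs searched, on both strands, were TATAAA (the TATA box), CCAAT (letters bound by NF-Y), GGGCGG (the Sp1 box), TGACGTCA (the CRE), TGAGTCA (letters bound by AP-1), CACGTG (an E-box) and GGAAA (the core shared by NFAT and Ets sites). TTCNNNGAA and GAAANNGAA were added after the data were seen. A GGAAA can overlap a GAAANNGAA or a TTCNNNGAA. Of 19938 genes, 15563 had a promoter in the table. GAAANNGAA stood in the 250 bases of 6.90% of all promoters, in 7 of the 15 promoters of the genes highest on replicates 2 and 4 (46.7%) and in 3 of the 21 of the opposite set (14.3%). TTCNNNGAA stood in 6.71% of all promoters, in 4 of those 15 and in 3 of those 21. Planned motifs differed from their shares too. TGAGTCA was in 4 of those 15 (26.7%) and 1 of those 21, beside 3.93% of all promoters. TATAAA was in 5 of those 15 (33.3%) and 2 of those 21, beside 11.2%. CCAAT was in 7 and 9, GGGCGG in 6 and 11, and GGAAA in 11 and 13. TGACGTCA and CACGTG were in 0 of both sets. Several of the 15 are Gbp genes with related sequence, and the sets also differed in base composition, with a median GC content of 47.2% for the 15 and 60.8% for the 21. A match is a set of letters and not a site of binding. Across the wider set, promoters of genes above background differed from the others. GGGCGG was in 58.6% of promoters of genes above background and in 24.8% of the rest, and TATAAA was in 6.16% and 19.8%. CACGTG was in 8.54% and 4.50%, in 7.04% of all and in 10.4% of the 500 genes with the highest signals. TGACGTCA was in 2.78% and 1.01%, and TGAGTCA was in 2.96% and 5.59%. CCAAT (35.7% and 35.3%) and GGAAA (53.5% and 58.1%) were similar in both. The share in all promoters was 46.1% for GGGCGG, 11.2% for TATAAA, 2.13% for TGACGTCA, 3.93% for TGAGTCA, 35.5% for CCAAT and 55.2% for GGAAA. Median GC content was 60.0% in promoters of genes above background and 48.8% in the rest, and it moves with most of these shares; its part in them was not tested.

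Replicate 4 was the lowest array for whole families of growth genes. It was lowest for 72 of 77 mitochondrial ribosomal protein genes, 63 of 79 respiratory chain genes, 32 of 37 proteasome genes, 14 of 15 tRNA synthetase genes, 15 of 18 ribosome biogenesis genes and 13 of 14 sterol and fatty acid genes, beside 46.2% of all genes above background. The deviations were small, on average -0.16 for the mitochondrial ribosomal proteins and -0.11 for the respiratory chain. After quantile normalization the counts were 53, 47, 21, 11, 14 and 11, beside 32.1% of all genes, with mean deviations of -0.09 and -0.07 for these 2 families. Replicate 1 was the highest array for 13 of the 14 sterol and fatty acid genes, for 13 after quantile normalization and for 12 with the arrays at a common median, beside 19.5%, 23.9% and 17.2% of all genes. Fasn read 11.95, 11.75, 11.82 and 11.65, and Acaca, the enzyme before it, chosen after its values were seen, read 10.63, 10.28, 10.43 and 10.11. For the cytosolic ribosomal proteins replicate 4 was the lowest for 22 of 60, for 18 after quantile normalization and for 45 with the arrays at a common median, beside 46.2%, 32.1% and 58.9% of all genes.

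**Figure D5:**
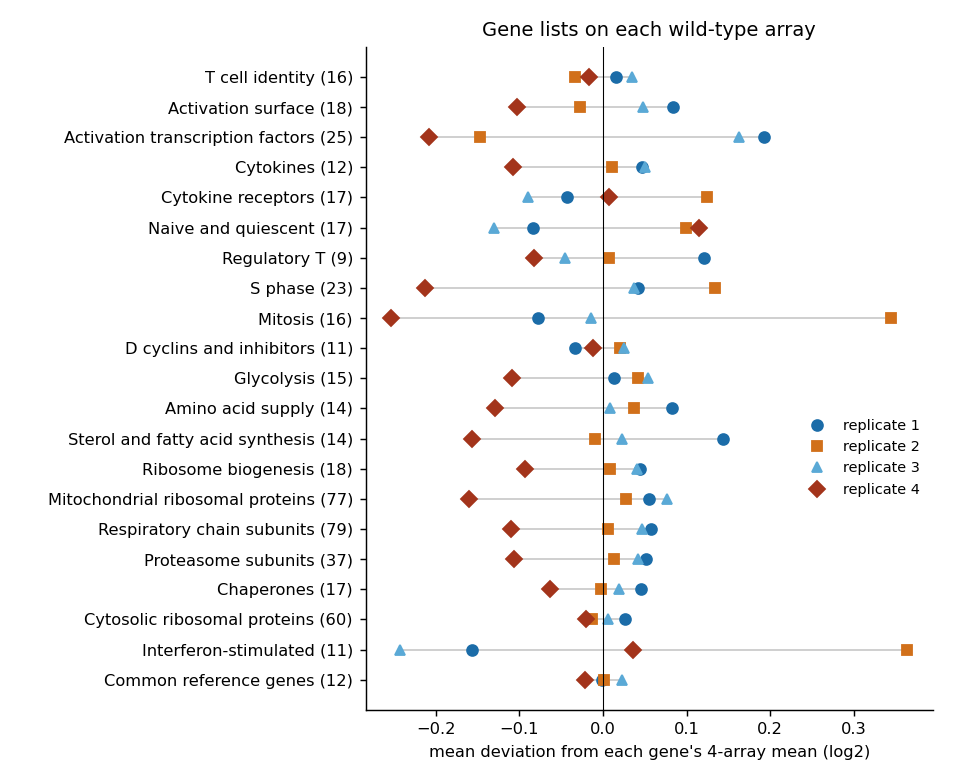
Mean deviation of the genes of 21 lists from each gene's own 4-array mean, in log2 units (horizontal axis), with the number of genes above background in brackets and a symbol per wild-type array. Replicate 4 lies left of the other arrays for most growth lists, replicates 1 and 3 lie apart from 2 and 4 for the activation transcription factors and, in the opposite direction, for the naive list, and replicate 2 lies to the right for mitosis and interferon-stimulated genes.

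Replicate 4 also differed in sex-linked genes. Xist, the RNA that silences an X chromosome in female cells, read 12.52 on replicate 4 and 6.28, 5.72 and 5.92 on replicates 1 to 3. The Y-linked genes were the reverse: Eif2s3y read 4.68 against 10.48, 10.73 and 10.59, Kdm5d read 5.83 against 9.78, 9.82 and 9.77, and Uty read 4.88 against 9.47, 9.68 and 9.62. The labels do not give the sex, and its part in the other deviations of replicate 4 was not tested.

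Some of the widest ranges did not follow the split of replicates 1 and 3 from 2 and 4. Marchf6, a ubiquitin ligase of the endoplasmic reticulum, read 6.94 on replicate 1 and 10.85, 10.88 and 10.92 on replicates 2 to 4, a 15.8-fold range, the widest of all genes above background; without replicate 1 its SD was 0.035 in place of 1.97. On the knockout arrays it took the same 2 levels, 10.84 and 10.88 on replicates 1 and 3 and 6.53 and 6.67 on replicates 2 and 4. Rab6b, a small GTPase, read 9.75 on replicate 2 and 7.89, 8.14 and 8.07 on the other wild-type arrays, and its SD was 0.129 without replicate 2. On the knockout arrays Rab6b read 9.48, 9.79, 9.65 and 9.57. The peptide carrier Slc15a2 read 8.62, 7.07, 8.20 and 9.69 (8.40 ± 1.08), and the ligase Mid1 read 9.56, 8.40, 9.68 and 10.27 (9.48 ± 0.78), or an SD of 0.380 without replicate 2. The SD of 6 of the 20 most variable genes, Marchf6, Akr1c18, Rab6b, Mid1, Oasl2 and Il7r, changed by over 1.5 times when 1 array was left out, and that of the other 14 did not.

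At the other end, the signals of some genes were the same on all arrays. Lrpap1, a chaperone of lipoprotein receptors (9.73), the ribosomal protein Rps15 (13.96) and the membrane protein Sidt2 (12.22) had identical values on the 4 arrays, which are rounded to 2 decimals. Other probe sets of Rps15 were not identical between arrays, with SDs of 0.061 and 0.026. Tubb5, a beta tubulin, read 13.73, 13.73, 13.74 and 13.73, and Depdc5, a subunit of a complex that restrains mTORC1, read 10.01 on 3 arrays and 10.02 on replicate 4. These genes span a wide range of signals, so a small spread was not limited to the brightest genes.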

How the data were processed

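The authors deposited 1 log2 signal per transcript cluster (the probe set of a transcript) and array; the tools, per the submitters' processing notes, were Partek and RMA, with versions and settings not given in the sources used here. RMA corrects background, normalizes arrays together and combines probes, which shrinks differences of dim genes. Of 35556 clusters, 21789 have 1 gene symbol in the platform annotation, 1621 several and 12146 none. For the 999 genes with several clusters the one with the highest mean over all 8 arrays was kept, whose clusters lay over 1 log2 unit apart in 423; 19938 genes remained. The 4 wild-type arrays were described with no contrast between genotypes and no p-value; knockout arrays gave only values and orders by replicate number, and Dixon's ratio was used only to mark arrays that lie apart. Arrays have no read depth, so their number limits the precision. Ranks, SDs, ranges and list counts were computed in Python 3.11.15 with pandas 2.3.3 and numpy 2.4.6. Of these steps, only the ranking by SD, the range filter and the grouping of genes by their highest arrays were tested on simulated data. All columns of sample values were used.

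Members and lists were chosen with earlier results of these data known. Of 471 entries in 32 hand-written lists, 431 matched a gene; the other 40 were not analysed here. By rule the text names the 5 markers, the 20 genes of highest mean, per list the 3 highest and the lowest, up to 6 other-cell markers above background per list, the 20 largest and 10 smallest SDs, the 5 genes furthest above and below the median on each array, and Xist, Kdm5d, Uty, Eif2s3y and Ddx3y (not matched). Predicted models, clones, small RNAs, histones, chemosensory receptors, pseudogenes and receptor segments are only counted. Genes named beyond this rule were chosen after their values were seen. Promoters came from RefSeq GRCm38.p6. Alternatives were other scalings, cluster choices, ceilings, filters, spread measures and leaving out each array.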

Additional observations from a re-analysis of the deposited data

Results flagged for a closer look

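Among 4 arrays, a gene was set apart where the gap between its highest or lowest array and the nearest other, divided by the range, exceeded Dixon's 95% critical value for groups of 4. Chance gives about 1 in 20 groups picked without regard to their values. Here 24 of 241 named genes and list means passed, but many of these genes were named for a large or small SD or for a distant array, so that rate does not apply to them. The sex-linked values belong to replicate 4: Xist 0.918, Eif2s3y 0.959, Kdm5d 0.987 and Uty 0.956, with 0.986 for the mean of that list. Replicate 4 was also the array apart for Mcm7 (0.964), Mrps12 (0.875), Cd8a (0.857), Ccnd1 (0.85), Ccr7 (0.875) and Baiap2l1 (0.857), and for the means of the survival and death list (0.935) and the tRNA synthetase list (0.849). The survival and death means were 10.48, 10.48, 10.48 and 10.44. For this list the mean deviation of replicate 4 went from -0.032 to 0.0075 after quantile normalization. For the tRNA synthetase list it went from -0.102 to -0.053. Replicate 2 was apart for Ccna2 (0.901) and Rab6b (0.866), and replicate 1 for Marchf6 (0.982), Il6st (0.917) and Cox7b2 (0.875), the last under the background ceiling. For Tubb5, Depdc5, Tatdn2, Ice1, B4galnt3 and Actl7a the ratio was 1, since 3 arrays had the same value and the remaining one differed by the last digit of the rounding.

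Clusters without a gene symbol were not used above. Of these 12146 clusters, 6500 (53.5%) were above the background ceiling on all 4 arrays, beside 61.8% of named genes, and of the 1621 clusters with several symbols 921 (56.8%) were. The shares are not alike, since named genes were each read by their highest-mean cluster and these clusters were counted singly.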

How the results depend on the processing

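No paired analysis was possible because the 4 arrays form 1 group and no groups were compared. Of 156 alternative values of the main results 6 moved by more than the limit set for them. With the 99th percentile as ceiling 9 other-cell markers were above background in place of 28. Leaving out 1 array gave a median SD of 0.0603 to 0.0954, 272 to 473 genes with a range of at least 0.5, and 38 to 47 genes with a range of at least 1; the lowest SD and the count of 272 came without replicate 4. The width of the deviations was 0 to 0.05 for replicate 1, 0.01 to 0.06 for replicate 2, 0.03 to 0.06 for replicate 3 and 0.12 to 0.18 for replicate 4; with 3 arrays the middle one deviates by 0 by construction. Genes above background numbered 9283 to 14098 over all alternatives. Among lists, 25 of 304 medians and 18 of 456 counts moved, the latter mostly with the stricter ceiling, and 22 of 1664 means of named genes did. Of the 100 genes with the highest signal 84 or more were shared under every alternative, and of the 100 with the largest SD 74 or more. Arrays show signal and not depth: a gene under the ceiling may still be expressed, and signals near it understate differences.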

Other observations

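Host genes and precursors of microRNAs were also on the arrays. Of 300 microRNA genes, 105 (35%) were above background, a lower share than that of all genes (61.8%); the probes read the longer RNA around the microRNA, and the mature form was not measured.

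The interferon-stimulated and guanylate-binding genes described above were measured in cells in which Ifng itself averaged 7.34 ± 0.30 and Mx1 4.87 ± 0.076 and Rsad2 6.45 ± 0.13 were not above background, so members of the same textbook list lay on both sides of the ceiling.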
